A study of Mus musculus with 15 samples.

Results

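Zfp57 encodes a KRAB zinc finger protein that binds a methylated motif at imprinting control regions and recruits Trim28, and it was read here together with 8 genes that write, copy, bind or oxidise DNA methylation. These 9 genes (Zfp57, Trim28, Dnmt1, Uhrf1, Dnmt3a, Dnmt3b, Tet1, Tet2 and Tet3) were taken by symbol out of 53801 genes in the count table, and all 9 passed the filter on low counts in each of the 3 comparisons. Zfp57 was selected on the size of its fall between Fl/Fl and Fl/+ cells after 4-hydroxytamoxifen (4-OHT), so its values are described without a test. The other 8 were chosen by what their products do, with earlier results of these data known.

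The libraries were poly(A) RNA of adult neural stem cells (aNSCs) that were taken from the subventricular zone at the age of 2 months, from mice of C57BL6/J-129sv background, and grown in suspension with EGF and bFGF. Every culture carried the Rosa26-CreERT2 transgene, a tamoxifen-inducible Cre expressed in most cell types, and at least 1 floxed allele of Trrap, the scaffold subunit of several histone acetyltransferase complexes. The 3 groups held 5 libraries each: Trrap Fl/+ without treatment, Trrap Fl/+ with 4-OHT, and Trrap Fl/Fl with 4-OHT. Each group was labelled as 3 male and 2 female mice. The labels give 5 days of 4-OHT, which the study's methods divide into 3 days with the drug and 2 in fresh medium without it. The first and second groups came from the same 5 mice (19, 24, 26, 35 and 36) and the third from 5 others (27, 28, 29, 37 and 39), so an untreated Fl/Fl group was not analysed here and the Fl/Fl against Fl/+ comparison sets different mice side by side.

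DNA methylation at CpG sites is copied after replication by Dnmt1, which Uhrf1 brings to hemimethylated DNA, is laid down anew by Dnmt3a and Dnmt3b, and is oxidised to 5-hydroxymethylcytosine and further products by Tet1, Tet2 and Tet3. At imprinted loci, Zfp57 and its corepressor Trim28 keep one parental methylation mark from being lost in the early embryo. Neural stem cells express most of this machinery, with Dnmt1 and Uhrf1 linked to proliferation.

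Total counts ran from 25720034 to 32187097 reads a library, and the members' counts from 48 to 12825. All 9 listed neural stem cell markers were measured, with summed levels of 7736 to 11070 counts per 1000000 reads (CPM) in the untreated group, 8142 to 10360 in the Fl/+ 4-OHT group and 6357 to 10330 in the Fl/Fl 4-OHT group, whereas 4 of 6 microglia and 3 of 5 endothelium markers had at most 3 counts in every library. Some libraries stood apart. Fl/Fl 4-OHT library 39, labelled female, held 0.31 CPM of Xist and 75.0 CPM of the Y-linked Kdm5d, against its label, and the male-labelled mouse 36 gave 5.89 CPM of Xist untreated and 74.7 CPM after 4-OHT beside 63.0 and 55.9 CPM of Kdm5d. In Fl/Fl 4-OHT library 29, Trrap was at 142 CPM, inside the 138 to 204 CPM of the Fl/+ 4-OHT libraries, while the other 4 Fl/Fl libraries ranged from 82.8 to 115 CPM. For the 9 members, results after Trrap deletion are therefore also given without library 29 and without mice 36 and 39. The ratios and gene lists are given only with all libraries.

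Promoter sequences are shown first, because the genes differ in them. RefSeq gives 16 promoter windows for the 9 genes on build GRCm38.p6, each of 300 bases (250 before and 50 after an annotated start). They were searched on both strands for the GC box GGGCGG, the core of the site recognised by Sp1 and related zinc finger factors, counting overlapping matches. Of all 32851 windows, 35.7% held at least 1. Of the members' windows 11 of 16 did, and 8 of the 9 genes had one in at least 1 window, as did 38.2% of all 27025 gene symbols. The exception was Zfp57, none of whose 3 windows held these letters. The shares over all genes include genes not expressed in these cells, and a gene with more windows has more chances of a match. Whether GC boxes have a part in the changes of level was not tested. Shown are the window at the Zfp57 gene start (chr17:37000913-37001212, plus strand), the Uhrf1 window with the most matches (chr17:56304063-56304362, plus strand), the Tet3 window (chr6:83441629-83441928, minus strand) and the Dnmt3a window with the most matches of any member (chr12:3806910-3807209, plus strand). All are written 5′ to 3′ on the gene's strand, with GC boxes in capitals:
Zfp57: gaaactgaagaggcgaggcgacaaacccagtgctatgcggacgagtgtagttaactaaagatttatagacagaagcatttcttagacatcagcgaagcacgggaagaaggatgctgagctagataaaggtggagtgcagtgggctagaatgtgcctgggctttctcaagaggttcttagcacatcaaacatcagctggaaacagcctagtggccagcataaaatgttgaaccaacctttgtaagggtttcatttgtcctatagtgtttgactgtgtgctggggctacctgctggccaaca
Uhrf1: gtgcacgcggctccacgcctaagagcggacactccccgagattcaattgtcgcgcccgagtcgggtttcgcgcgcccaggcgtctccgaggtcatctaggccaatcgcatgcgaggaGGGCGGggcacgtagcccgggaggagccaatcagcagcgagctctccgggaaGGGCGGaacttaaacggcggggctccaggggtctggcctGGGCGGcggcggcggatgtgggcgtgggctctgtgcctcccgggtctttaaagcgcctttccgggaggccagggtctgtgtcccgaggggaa
Tet3: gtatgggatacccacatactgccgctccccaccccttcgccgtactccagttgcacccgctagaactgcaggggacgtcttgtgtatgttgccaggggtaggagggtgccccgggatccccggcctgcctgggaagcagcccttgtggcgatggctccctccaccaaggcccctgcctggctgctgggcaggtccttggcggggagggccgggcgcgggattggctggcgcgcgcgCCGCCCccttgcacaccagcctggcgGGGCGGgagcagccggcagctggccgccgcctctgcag
Dnmt3a: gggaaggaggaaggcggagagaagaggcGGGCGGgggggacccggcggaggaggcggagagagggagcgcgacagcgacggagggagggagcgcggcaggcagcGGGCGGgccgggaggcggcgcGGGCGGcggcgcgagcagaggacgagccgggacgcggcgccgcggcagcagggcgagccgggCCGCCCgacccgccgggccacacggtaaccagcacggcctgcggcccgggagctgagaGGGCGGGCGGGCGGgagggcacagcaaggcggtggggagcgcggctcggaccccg
The Zfp57 window held 6 CpG dinucleotides, against a median of 7 over all windows, and the other Zfp57 windows held 9 and 4. The Uhrf1 window held 33 CpGs and 3 GC boxes, more CpGs than 91.4% of all windows. In the Tet3 window there were 22 CpGs and 2 GC boxes. The Dnmt3a window held 47 CpGs and 7 GC boxes, some of them overlapping. Tet2, not printed, had the most CpG-dense window of the set, with 57 CpGs and 1 GC box. A match describes these letters and is not evidence of a bound factor, and the lack of one in Zfp57 says only that these letters are not in these windows.

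Compared per kilobase of merged exon, the members spanned more than 2 orders of magnitude in level. In untreated Fl/+ cells Trim28 was the most abundant, at 94.2 ± 7.75 CPM per kb (SD, n = 5), followed by Dnmt1 at 29.0 ± 7.57 and Uhrf1 at 16.9 ± 8.83 CPM per kb. Tet3 and Dnmt3a came next, at 7.60 ± 0.198 and 7.35 ± 1.06 CPM per kb, and overlapped each other. Zfp57 (3.33 ± 1.596 CPM per kb) overlapped both Tet2 (2.81 ± 0.528) and Tet1 (1.83 ± 0.256), and Dnmt3b was lowest (0.744 ± 0.107 CPM per kb). The ranges of Dnmt1 and Uhrf1 overlapped as well, while Trim28, Dnmt3a, Tet2 and Tet1 each lay above the next gene in all 5 libraries. Zfp57 ranked sixth in both Fl/+ groups and eighth in Fl/Fl cells after 4-OHT, at 0.911 ± 0.436 CPM per kb, below Tet1 and Tet2.

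After deletion of Trrap, estimates for all 8 members other than Zfp57 were lower, and 5 of them passed the test: Trim28, Uhrf1, Dnmt3b, Tet2 and Tet3. In edgeR's quasi-likelihood test, adjusted over all 15036 genes tested, 31.7% of genes were called and 15.0% were called lower. The median log2 fold change of the 8 was -0.54, beside 0.02 over all genes. Because the samples are bulk RNA, fewer expressing cells and less RNA per cell cannot be told apart.

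**Figure D1:**
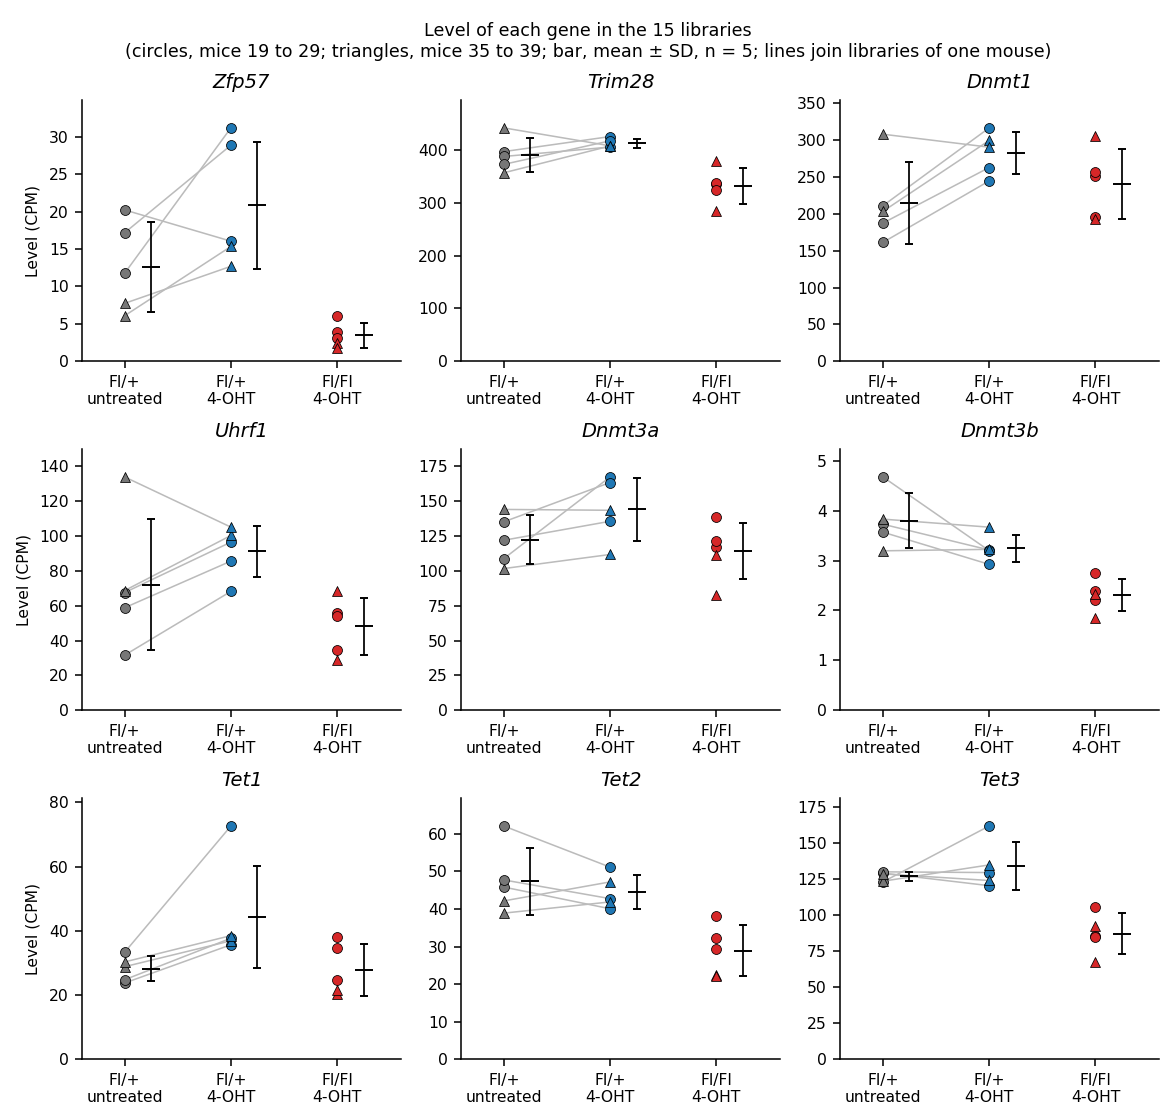
Level of each gene in CPM (y axis, from 0) in the 15 libraries, by group (x axis). Points are libraries (circles for mice 19 to 29, triangles for mice 35 to 39), bars the mean ± SD of 5, and grey lines join the untreated and treated culture of one mouse; Zfp57, Trim28, Dnmt3b, Tet2 and Tet3 of the Fl/Fl group lie below every Fl/+ 4-OHT library.

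Zfp57 (ENSMUSG00000036036, chr17:37001163-37010635, plus strand) stood at 31.2, 16.1, 28.9, 12.7 and 15.3 CPM in the Fl/+ 4-OHT libraries of mice 19, 24, 26, 35 and 36. The Fl/Fl 4-OHT libraries of mice 27, 28, 29, 37 and 39 held 3.91, 3.09, 6.03, 2.47 and 1.74 CPM. All 5 lay below the lowest Fl/+ library. Without library 29 the log2 fold change went from -2.57 ± 0.37 (SE) to -2.89 ± 0.35, and without mice 36 and 39 it was -2.51 ± 0.37.

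Before treatment, Zfp57 stood at 11.8, 20.2, 17.2, 7.73 and 6.08 CPM in the same 5 Fl/+ mice. It was higher after 4-OHT in 4 of the 5, mouse 24 being the exception, and the 2 sets of values overlapped (log2 fold change 0.73 ± 0.36). Zfp57 also followed the mouse numbers. In each of the 3 groups the 3 libraries of mice 19 to 29 exceeded both libraries of mice 35 to 39. None of the other 8 members had this order, and 3.15% of the 15309 genes tested in any comparison did. What sets the mouse numbers apart is not stated in the labels. Within the lower-numbered mice the log2 ratio of mean Zfp57 levels, Fl/Fl to Fl/+ 4-OHT, was -2.55, and within the higher-numbered mice it was -2.73.

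The 5 genes whose profile over the 15 libraries was nearest to that of Zfp57 were Prr36, D430019H16Rik, Arhgdig, Vash2 and Igsf9, with root mean square differences of 0.372, 0.420, 0.443, 0.478 and 0.503 in mean-centred log2(CPM + 0.5). The median over the 13332 genes compared was 1.19. Prr36, the nearest, averaged 25.3 ± 11.8 CPM untreated, 30.7 ± 9.90 CPM in Fl/+ 4-OHT cells and 8.52 ± 2.51 CPM in Fl/Fl 4-OHT cells. Of the other members Tet2 was the nearest, at 0.866 (place 326 of 13332), and Dnmt1 the farthest, at 1.21. This measure weighs the size of a change as well as its pattern, so genes with small changes lie far from Zfp57 whatever their pattern.

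Trim28 (ENSMUSG00000005566, chr7:12999114-13031035, plus strand), the corepressor that links KRAB zinc finger proteins to histone methyltransferases, fell by 19.6% in mean level. Fl/+ 4-OHT libraries held 426, 406, 418, 408 and 408 CPM and Fl/Fl 4-OHT libraries 336, 337, 324, 285 and 380 CPM, without overlap. The log2 fold change was -0.30 ± 0.08 (edgeR, adjusted p = 0.0138), and Trim28 was called in all 19 alternative fits of this comparison.

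Uhrf1 (ENSMUSG00000001228, chr17:56303321-56323486, plus strand), which recognises hemimethylated CpGs and recruits Dnmt1, had the largest change among the 8. Its levels were 96.5, 85.6, 68.2, 100 and 105 CPM in Fl/+ 4-OHT cells. They were 55.6, 53.8, 34.4, 28.7 and 68.3 CPM in Fl/Fl 4-OHT cells, where library 39 just exceeded the lowest Fl/+ library. The log2 fold change was -0.90 ± 0.22 (edgeR, adjusted p = 0.00901), called in all 19 alternative fits, and without mice 36 and 39 it was -1.02 ± 0.22 (adjusted p = 0.0115).

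Dnmt1 (ENSMUSG00000004099, chr9:20907209-20959888, minus strand), the maintenance methyltransferase, did not pass the test. The Fl/+ 4-OHT libraries held 317, 263, 245, 300 and 290 CPM and the Fl/Fl 4-OHT libraries 251, 257, 196, 193 and 306 CPM, so that 3 of the 5 Fl/Fl libraries lay inside the Fl/+ range. The log2 fold change was -0.22 ± 0.13 (edgeR, adjusted p = 0.217), and no alternative fit called it.

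Uhrf1 and Dnmt1 thus had different estimates, and their ratio within each library shows the gap directly. Uhrf1 reads per Dnmt1 read ranged from 0.279 to 0.362 in Fl/+ 4-OHT cells and from 0.1485 to 0.224 in Fl/Fl 4-OHT cells, without overlap, and from 0.196 to 0.435 in untreated cells, whose lowest library overlapped the Fl/Fl group. This ratio was formed after the values were seen and was not tested. Genes of S phase were read beside Uhrf1. Of 25 listed, 24 had lower estimates in Fl/Fl 4-OHT cells (median log2 fold change -0.40), but only 4 were called lower, near the 15.0% of all genes. Among them were Rrm2 (-1.42 ± 0.22, adjusted p = 0.000860), a ribonucleotide reductase subunit, and Ccna2 (-1.25 ± 0.23, adjusted p = 0.00250), cyclin A2. The summed level of the 25 genes ran from 1462 to 2291 CPM in Fl/+ 4-OHT cells, from 946 to 1988 CPM in Fl/Fl 4-OHT cells and from 872 to 2912 CPM in untreated cells.

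Set against that sum, Uhrf1 gave 44.9 to 46.7 reads per 1000 S phase reads in Fl/+ 4-OHT cells and 30.4 to 35.8 in Fl/Fl 4-OHT cells, again without overlap. The untreated libraries gave 36.3 to 46.0. Dnmt1 went the other way, with 127 to 167 reads per 1000 S phase reads in Fl/+ 4-OHT cells and 154 to 204 in Fl/Fl 4-OHT cells, which overlapped. These ratios were not tested, and how many genes separate in the same way was not counted. Rrm2 and Ccna2, both in the sum, had larger falls than Uhrf1. The part of cell cycle genes in the fall of Uhrf1 was not tested.

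**Figure D2:**
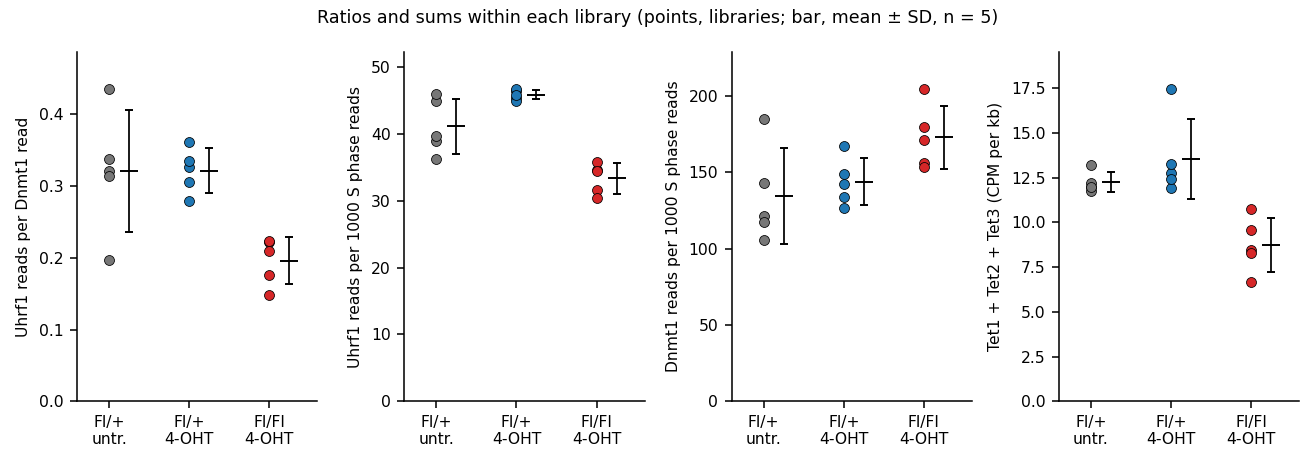
Per library (points; bar, mean ± SD of 5), from left to right, Uhrf1 reads per Dnmt1 read, Uhrf1 and Dnmt1 reads per 1000 reads of the 25 S phase genes, and the summed level of Tet1, Tet2 and Tet3 in CPM per kb. All y axes start at 0; the Fl/Fl 4-OHT group lies below the Fl/+ 4-OHT group without overlap in both Uhrf1 panels and in the Tet panel, and overlaps it in the Dnmt1 panel.

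The de novo methyltransferases differed in level rather than clearly in direction. Dnmt3a (ENSMUSG00000020661, chr12:3806007-3914443, plus strand) stood at 136, 167, 163, 112 and 143 CPM in Fl/+ 4-OHT cells and at 117, 139, 121, 83.0 and 111 CPM in Fl/Fl 4-OHT cells. The groups overlapped, and the log2 fold change of -0.32 ± 0.14 did not pass the test (edgeR, adjusted p = 0.112); 2 of 19 alternative fits called it. Its exons overlap those of the antisense Dnmt3aos over 133 bases, on the opposite strand of stranded libraries.

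Dnmt3b (ENSMUSG00000027478, chr2:153649450-153687730, plus strand), low in these cells, held 3.21, 3.20, 2.92, 3.22 and 3.67 CPM in Fl/+ 4-OHT libraries and 2.39, 2.21, 2.75, 1.86 and 2.33 CPM in Fl/Fl 4-OHT libraries, without overlap. Its log2 fold change was -0.47 ± 0.16 (edgeR, adjusted p = 0.0382). This call was the least stable of the 5. It was kept in 8 of 19 alternative fits and in 2 of the 10 that left out 1 library, and without mice 36 and 39 the log2 fold change was -0.44 ± 0.19 (adjusted p = 0.116). The estimate itself stayed between -0.56 and -0.42 in all 19.

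The dioxygenases Tet2 and Tet3 fell, and Tet1 had a lower estimate that missed the threshold. Tet3 (ENSMUSG00000034832, chr6:83362373-83459084, minus strand), the most abundant of the family per kilobase, held 120, 162, 130, 135 and 124 CPM in Fl/+ 4-OHT cells and 85.3, 106, 84.9, 67.5 and 92.9 CPM in Fl/Fl 4-OHT cells. The groups did not overlap, and the log2 fold change of -0.61 ± 0.12 had the smallest adjusted p of the 8 (edgeR, 0.00368).

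Tet2 (ENSMUSG00000040943, chr3:133463679-133545139, minus strand) was at 40.1, 51.1, 42.7, 47.2 and 41.9 CPM in Fl/+ 4-OHT libraries and at 29.3, 32.4, 38.2, 22.5 and 22.2 CPM in Fl/Fl 4-OHT libraries. All 5 Fl/Fl libraries lay below every Fl/+ library. The log2 fold change was -0.61 ± 0.15 (edgeR, adjusted p = 0.0116), and -0.74 ± 0.13 without library 29 (adjusted p = 0.00356). Its exons share 43 bases with the antisense Gm42567. Both Tet2 and Tet3 were called in all 19 alternative fits.

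Tet1 (ENSMUSG00000047146, chr10:62804570-62908996, minus strand) stood at 35.7, 72.7, 37.7, 36.9 and 38.5 CPM in Fl/+ 4-OHT cells and at 24.6, 38.0, 34.6, 20.3 and 21.7 CPM in Fl/Fl 4-OHT cells. One Fl/+ library, of mouse 24, was far above the others, and 4 of 5 Fl/Fl libraries lay below the whole Fl/+ group. The log2 fold change was -0.66 ± 0.24 (edgeR, adjusted p = 0.0583), with a call in 4 of 19 alternative fits. Without the library of mouse 24 it was -0.41 ± 0.18 (adjusted p = 0.111). Summed per kilobase, the 3 Tet transcripts gave 11.9 to 17.4 CPM per kb in Fl/+ 4-OHT cells, 6.69 to 10.7 in Fl/Fl 4-OHT cells and 11.8 to 13.2 in untreated cells.

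In all, 4 of the 8 tested members (Trim28, Dnmt3b, Tet2 and Tet3) lay lower in Fl/Fl than in Fl/+ 4-OHT cells without overlap, as did 11.4% of all genes tested. Leaving out library 29 kept the calls of the same 5 genes, with log2 fold changes of -0.31 for Trim28, -0.82 for Uhrf1, -0.56 for Dnmt3b, -0.74 for Tet2 and -0.61 for Tet3, and gave -0.17 for Dnmt1, -0.36 for Dnmt3a and -0.76 for Tet1, which were not called by edgeR. Without mice 36 and 39 the calls of Trim28 (-0.37), Uhrf1 (-1.02), Tet2 (-0.56) and Tet3 (-0.67) were kept and that of Dnmt3b (-0.44) was lost, and Dnmt1 (-0.32), Dnmt3a (-0.33) and Tet1 (-0.64) were not called. Within both sets of mouse numbers every one of the 8 had a lower mean in Fl/Fl cells. The smallest such difference was that of Dnmt1 in mice 19 to 29, a log2 ratio of -0.23, and the largest that of Uhrf1 in mice 35 to 39, a log2 ratio of -1.08.

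**Figure D3:**
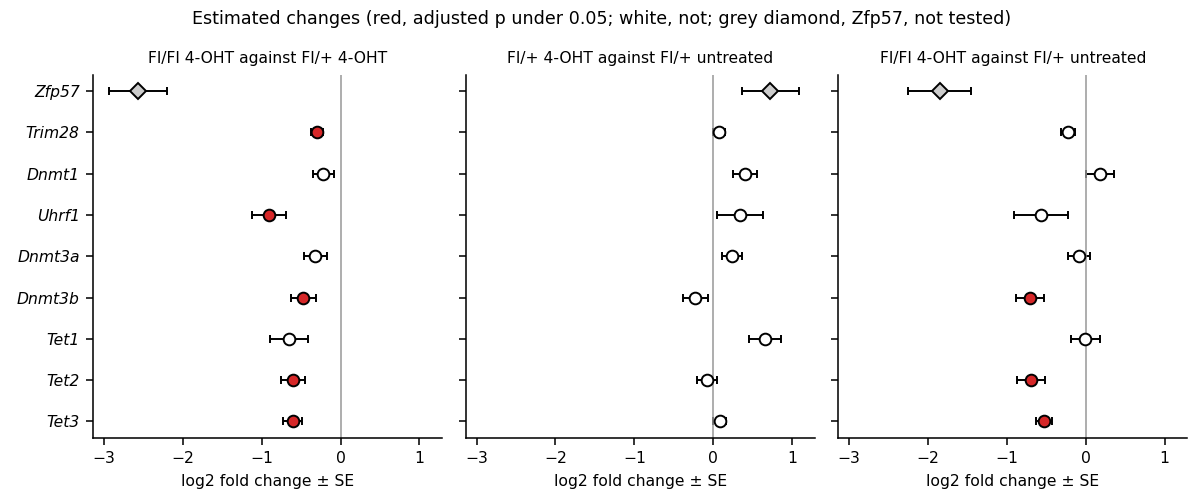
Estimated log2 fold change ± SE (x axis) of the 9 genes in the 3 comparisons, from edgeR fits without the mouse block. In the middle panel Tet1 and Dnmt1 are white, though both were called with the block. Red points had an adjusted p under 0.05, white points did not, and the grey diamond marks Zfp57, which was not tested; red points occur in the left panel (5) and the right panel (3) and all lie below 0.

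The effect of 4-OHT was read in Fl/+ cells with and without treatment, where it cannot be told apart from recombination of their single floxed Trrap allele. None of the 8 members passed edgeR's test in the unpaired fit, where 13.8% of 14821 genes were called. An unadjusted p under 0.05 was reached by 2 of the 8 and by 29.4% of all genes, and DESeq2 called 1 of the 8 and 16.6% of the 18088 genes it tested. With the mouse as a block, which is the paired comparison of cultures of one mouse, 25.7% of genes were called and 2 of the 8, both higher: Tet1 (log2 fold change 0.61 ± 0.12, adjusted p = 0.00844) and Dnmt1 (0.43 ± 0.11, adjusted p = 0.0230). Untreated cells held 23.8, 33.3, 24.8, 28.9 and 30.3 CPM of Tet1, below every treated library, and Tet1 rose in 5 of 5 mice. Without the treated library of mouse 24 the unpaired log2 fold change went from 0.65 ± 0.20 (adjusted p = 0.0528) to 0.41 ± 0.12 (adjusted p = 0.0489).

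Dnmt1 stood at 211, 187, 161, 203 and 308 CPM untreated and was higher after 4-OHT in 4 of 5 mice, the exception being mouse 36. Without the untreated library of mouse 36 the unpaired log2 fold change of Dnmt1 went from 0.40 ± 0.16 (edgeR, adjusted p = 0.111) to 0.57 ± 0.11 (adjusted p = 0.00829). Uhrf1 showed the same exception. It stood at 67.6, 58.8, 31.6, 68.7 and 134 CPM untreated, mouse 36 being highest, and the treated values were higher in 4 of 5 mice (log2 fold change 0.34 ± 0.30, edgeR adjusted p = 0.484). The Uhrf1 estimate went to 0.69 ± 0.22 (adjusted p = 0.0530) without untreated mouse 36 and to 0.15 ± 0.23 (adjusted p = 0.736) without untreated mouse 26. With the mouse block and all libraries the Uhrf1 estimate was 0.47 ± 0.17 (edgeR, adjusted p = 0.0766).

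For the remaining members the estimates of the unpaired fit were small. Trim28, at 357 to 442 CPM untreated, had a log2 fold change of 0.08 ± 0.08, Tet3, at 123 to 130 CPM untreated, one of 0.08 ± 0.09, and Tet2, at 38.9 to 62.1 CPM untreated, one of -0.08 ± 0.13. Dnmt3a (102 to 144 CPM untreated, 0.24 ± 0.13) was higher in 4 of 5 mice, and Dnmt3b (3.19 to 4.67 CPM untreated, -0.22 ± 0.16) was higher in 1 of 5. These fits do not show that the 5 genes stayed level.

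Between Fl/Fl 4-OHT and untreated Fl/+ cells, which differ in both genotype and treatment, 3 of the 8 members were called, all lower. These were Tet3 (log2 fold change -0.53 ± 0.10, edgeR adjusted p = 0.00337), Tet2 (-0.70 ± 0.17, adjusted p = 0.0116) and Dnmt3b (-0.70 ± 0.18, adjusted p = 0.0125), each also called in all 19 alternative fits. Over the 15032 genes tested 30.7% were called, 15.1% lower, and 11.6% lay lower without overlap, as did these 3 genes. This comparison shares its libraries with the other 2. Zfp57 lay below every untreated library in all 5 Fl/Fl libraries, with a log2 fold change of -1.85 ± 0.40.

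Uhrf1 (-0.57 ± 0.34, edgeR adjusted p = 0.230) and Trim28 (-0.22 ± 0.09, adjusted p = 0.0906) had lower estimates against untreated cells that missed the threshold. For Uhrf1 the estimate went from -0.76 to -0.22 with 1 library left out, the lower without untreated mouse 26 and the higher without untreated mouse 36. Dnmt1 (0.18 ± 0.18, adjusted p = 0.480) had a higher one. The estimates of Dnmt3a (-0.08 ± 0.14) and Tet1 (-0.01 ± 0.18) were within 1 SE of 0. Mean Tet1 levels were 27.8 CPM in Fl/Fl 4-OHT cells and 28.2 CPM in untreated cells, beside 44.3 CPM in Fl/+ 4-OHT cells.

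The wider pathway was read from gene lists chosen with earlier results of these data known, so their counts are descriptions. One list held 7 proteins with a CXXC domain, a domain that binds unmethylated CpGs. After Trrap deletion 6 of these 7 were called lower and none higher, where 15.0% of all genes were called lower, and their median log2 fold change was -0.43. The list is not the whole class and leaves out Dnmt1, Tet1, Tet3 and Mbd1, of which only Tet3 was called. Kdm2b, a histone demethylase that brings Polycomb complexes to CpG islands, fell from 56.0 ± 5.34 to 30.2 ± 2.85 CPM (log2 fold change -0.88 ± 0.09, edgeR adjusted p = 0.000131). Cxxc4 fell from 18.4 ± 1.64 to 10.7 ± 2.48 CPM (-0.77 ± 0.17, adjusted p = 0.00545).

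Trim28's heterochromatin partners had 9 of 16 called lower and none higher (median -0.33), beside 15.0% of all genes called lower. The largest falls were those of Trim24, a relative of Trim28, from 90.0 ± 11.6 to 50.8 ± 4.57 CPM (-0.81 ± 0.10, edgeR adjusted p = 0.000291), and of Morc3, from 31.1 ± 4.89 to 20.8 ± 1.35 CPM (-0.56 ± 0.11, adjusted p = 0.00363). Setdb1, the H3K9 methyltransferase that Trim28 recruits, had a log2 fold change of -0.15 ± 0.08 (adjusted p = 0.153).

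Among KRAB zinc finger proteins other than Zfp57, 6 of 12 tested were called lower and none higher (median -0.34), again beside 15.0% of all genes. The largest falls were those of Zfp68 (-1.07 ± 0.12, edgeR adjusted p = 0.000138) and Zfp961 (-0.67 ± 0.12, adjusted p = 0.00196). Zfp445, which also protects imprints, stood at 140 and 152 CPM in Fl/Fl and Fl/+ 4-OHT cells (-0.10 ± 0.10, adjusted p = 0.471). Genes of this family resemble one another in sequence. Per the study's methods only uniquely mapped reads were counted, so reads shared between copies may be missing.

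Cofactors of maintenance methylation had 2 of 9 called lower and 1 higher (median -0.20), near the 31.7% of all genes called. Uhrf2, the relative of Uhrf1, fell from 74.1 ± 4.99 to 50.1 ± 2.68 CPM (-0.55 ± 0.07, edgeR adjusted p = 0.000288), and Usp7, the deubiquitinase that acts on Dnmt1 and Uhrf1, had a log2 fold change of -0.30 ± 0.07 (adjusted p = 0.00693). Dmap1, a Dnmt1-binding protein that is also a subunit of the Trrap-containing Tip60 complex, rose by 0.33 ± 0.10 (adjusted p = 0.0333).

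Genes of demethylation through base excision had 3 of 11 called lower and none higher (median -0.18), beside 15.0% of all genes called lower and 31.7% called in either direction. Apex1, the abasic-site endonuclease, went from 97.9 ± 7.84 to 54.4 ± 5.73 CPM (-0.83 ± 0.08, edgeR adjusted p = 0.000117), and the glycosylase Neil3 changed by -0.83 ± 0.25 (adjusted p = 0.0242). Of 9 readers of methylated CpGs none was called, beside 31.7% of all genes. Among them 5 had higher and 4 lower estimates, from -0.24 for Zbtb33 to 0.22 for Mbd1. The list of methyl donor supply holds enzymes and also relatives of them such as Ahcyl2. It had 2 of 11 genes called, below the 31.7% of all genes, both higher: Ahcyl2 (0.34 ± 0.07, edgeR adjusted p = 0.00445) and Mthfd1 (0.28 ± 0.10, adjusted p = 0.0452).

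**Figure D4:**
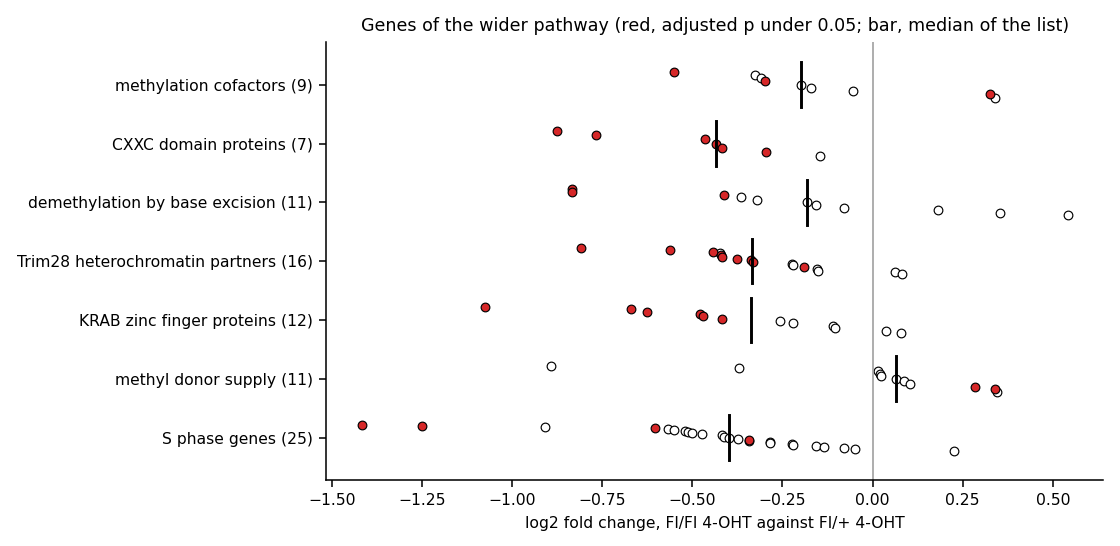
Log2 fold change of single genes (x axis), Fl/Fl 4-OHT against Fl/+ 4-OHT, in 7 gene lists (y axis, number of genes tested in parentheses). Red points had an edgeR adjusted p under 0.05, white points did not, and black bars are list medians. In the lists, 6 of 7 CXXC domain genes and 9 of 16 Trim28 partners were called lower, and the 2 called genes of the methyl donor list were higher.

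After 4-OHT alone, counts in these lists were read from the unpaired fit, in which 13.8% of all genes were called. CXXC domain proteins had 1 higher (Kdm2a, log2 fold change 0.35 ± 0.08, edgeR adjusted p = 0.0123) and 1 lower (Cxxc4, -0.54 ± 0.16, adjusted p = 0.0427) of 7. Trim28 partners had 1 higher (Ehmt1, 0.22 ± 0.06, adjusted p = 0.0429) and 1 lower (Ehmt2, -0.27 ± 0.08, adjusted p = 0.0356) of 16. Apex1 was the 1 of 11 base excision genes called (-0.29 ± 0.09, adjusted p = 0.0459) and Mthfd1 the 1 of 11 methyl donor genes (-0.40 ± 0.09, adjusted p = 0.0141), both lower. No cofactor, KRAB zinc finger or S phase gene of these lists was called by edgeR in the unpaired fit. With the mouse block, where 25.7% of all genes were called, 2 of 9 cofactors and 3 of 25 S phase genes were called higher and 1 of 12 KRAB zinc finger genes lower. Readers of methylated CpGs had 2 of 9 called higher. The block called 1 base excision gene higher and 1 lower of 11, 3 of 11 methyl donor genes lower, and among 23 imprinted genes 9 higher and 3 lower.

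The 2 classes of transcripts best known to depend on methylation were counted as well. Of 28 listed imprinted genes 23 were tested, and after Trrap deletion 5 were called lower and none higher, where 31.7% of all genes were called and 15.0% were called lower. Nnat was at -1.13 ± 0.23 (edgeR adjusted p = 0.00395) and Grb10 at -1.09 ± 0.37 (adjusted p = 0.0413). After 4-OHT 5 were called higher and none lower, where 13.8% of all genes were called, among them H19 (5.59 ± 0.65, adjusted p = 0.000614) and Rian (3.04 ± 0.61, adjusted p = 0.00912). Of 19 germline genes silenced by promoter methylation in somatic cells, 14 had at most 3 counts in every one of the 15 libraries and 4 of these had none. For those 4 genes, no counts still allow a level of up to 0.119 CPM in the shallowest library (3 counts, for counting error only). For genes with some counts the limit is higher. Only Ddx4 and Brdt were abundant enough to be tested, and Brdt was higher in Fl/Fl than in Fl/+ 4-OHT cells, at 11.4 ± 0.944 against 7.88 ± 0.993 CPM (0.54 ± 0.12, adjusted p = 0.00536). DNA methylation itself was not measured in these libraries.

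Markers of cell types were counted in the same way, beside 31.7% of all genes called and 15.0% called lower after Trrap deletion, and 13.8% called in the unpaired fit after 4-OHT. Neuron markers had 2 of 6 called lower after Trrap deletion, Dcx (-2.51 ± 0.41, edgeR adjusted p = 0.00123) and Tubb3 (-1.03 ± 0.33, adjusted p = 0.0334). Their summed levels were 832 to 1101 CPM untreated, 815 to 999 CPM in Fl/+ 4-OHT cells and 555 to 806 CPM in Fl/Fl 4-OHT cells. Most of this sum was Map2, with means of 902, 798 and 684 CPM in that order. Map2 was not called after Trrap deletion (-0.21 ± 0.11, edgeR adjusted p = 0.192). Oligodendrocyte markers had 5 of 6 called higher after 4-OHT and 1 of 6, Mobp, after Trrap deletion, with summed levels of 34.0 to 179, 162 to 659 and 230 to 1970 CPM in the same order. Neural stem cell markers had 4 of 9 called lower after Trrap deletion, Hes5 most of all (-1.01 ± 0.28, adjusted p = 0.0176), and 1 higher and 2 lower after 4-OHT. Astrocyte markers had 1 of 6 called higher after Trrap deletion, and 1 higher and 2 lower after 4-OHT. With the mouse block, where 25.7% of all genes were called, the counts after 4-OHT were 2 higher and 3 lower of 9 neural stem cell markers, 2 higher and 2 lower of 6 astrocyte markers, 2 lower of 6 neuron markers and 5 higher of 6 oligodendrocyte markers. None of the 1 microglia, 1 endothelium, 2 fibroblast and pericyte or 2 ependyma markers tested was called after Trrap deletion. The part of these markers in the levels of Zfp57 and the other members was not tested.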

How the data were processed

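RNA of 15 aNSC cultures was sequenced as stranded poly(A) libraries. Per the labels and the study's methods, the authors demultiplexed with bcl2fastq 1.8.4, aligned to GRCm38 with STAR 2.5.4b and deposited raw gene counts from featureCounts 1.5.0, counted by strand. IDs were matched to GENCODE vM21 (53706 of 53801 genes), which also gave positions and merged exon lengths. Columns of untreated cultures carry only a mouse number and were matched to samples by it. Counts per 1000000 reads (CPM) used TMM-normalised library sizes. Each comparison was fitted on its own 10 libraries with edgeR 4.0.16 (R 4.3.3, filterByExpr with a minimum count of 10, quasi-likelihood F test, Benjamini-Hochberg threshold 0.05). The SE is the size of the log2 fold change divided by the square root of F, and CPM per kb is CPM divided by merged exon length. The fit was tested on simulated data.

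Alternatives were DESeq2 1.42.0, other scalings and filters, all 15 libraries in one fit, sex as labelled, the mouse block, each library left out and, added after seeing the data, the set of mouse numbers and leaving out mice 36 and 39. The sex labels include that of library 39, which its Xist and Kdm5d levels contradict. Same-mouse cultures deviated together (correlations from 0.156 to 0.626 in 5 pairs, against -0.549 to 0.339 in 20 pairs of different mice, over 15435 genes), and the labels give the same mouse number. They were treated as pairs only in the fit with the mouse block, and the main 4-OHT fit was unpaired. The members and gene lists (197 genes in 18 lists, 196 matched; 1 further gene is not reported here) were chosen with earlier results of these data known. All 9 members are named, and for each list, in the Trrap deletion and 4-OHT comparisons, up to 2 called genes per direction with the largest change and a mean of at least 1 CPM; Setdb1, Zfp445, Ddx4, Zbtb33 and Mbd1 were added after their values were seen. Genes like Zfp57 were the 5 nearest by root mean square difference among genes averaging at least 1 CPM. Mice are separate animals, 1 library per culture.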

Additional observations from a re-analysis of the deposited data

Results flagged for a closer look

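One of the 27 sets of 5 libraries (9 genes in 3 groups) held a library far from the rest. Tet1 in the Fl/+ 4-OHT library of mouse 24 was at 72.7 CPM, while the other 4 libraries of that group lay between 35.7 and 38.5 CPM, a gap of 0.923 of the whole range. Chance marks about 1 in 20 such sets.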

How the results depend on the processing

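After Trrap deletion, 4 to 7 of the 8 tested members were called over 9 alternatives in fit, filter or sets of mice, and 4 to 5 when 1 library was left out. The 4-OHT count of 0 was the unstable one. It became 1 with DESeq2, with library size alone, with a filter of 10 counts in every library, with all 15 libraries in one fit and without mouse 36, 2 with sex or the set of mouse numbers as a covariate, 2 with the mouse as a replicate block, and 0 to 1 with 1 library left out. The calls gained were of Tet1, Dnmt1 or both. Against untreated cells the count was 3 to 4. The replicate block, possible only for the 4-OHT comparison, changed no other member's call.

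Reversed signs were all of log2 fold changes near 0. In the 4-OHT comparison Tet2 ran from -0.1476 to 0.03265 with 1 library left out, above 0 only without the untreated library of mouse 24. Against untreated cells Dnmt3a went to 0.01007 with library size alone and ran from -0.1617 to 0.01145 with 1 library left out, above 0 without Fl/Fl 37. Tet1 went to 0.09037 with library size alone, 0.004584 without a filter, 0.009303 with 10 counts in every library and 0.1007 without mice 36 and 39, and ran from -0.1437 to 0.08788 with 1 library left out, above 0 without untreated 24 or 36 or Fl/Fl 27, 37 or 39. The causes were not tested. Of 464 values of the 8 tested members under an alternative, 421 kept their direction and side of the threshold.

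Counts over all genes moved by more than 1.5 times in the 4-OHT comparison alone, from 2044 called to 3809 with the block, 3170 with the set of mouse numbers, 1271 without Fl/+ 4-OHT 19 and 1311 without Fl/+ 4-OHT 35. Library size alone gave 1396 higher and 712 lower calls there (1088 and 956 with TMM), and 3150 and 1603 against untreated cells (2357 and 2263). Depth limits Dnmt3b and Zfp57 most, the lowest value of any member being 48 counts.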
